A study of Mus musculus with 7 samples.

Results

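The genes described here are 8 transcription factor genes of the liver-enriched families: Hnf4a and Hnf4g (nuclear receptors), Foxa1, Foxa2 and Foxa3 (forkhead factors), and Onecut1, Onecut2 and Onecut3 (cut-homeodomain factors). They were taken by symbol from a table of 55536 genes, and all 8 were found in it. RNA was sequenced from pancreatic alpha cells, the glucagon-secreting cells of the islet, that had been sorted from mouse islets by tdTomato fluorescence. The 4 control libraries came from Nkx2.2+/+;Gcg-iCre;Rosa26:tdTomato mice and the 3 knockout (KO) libraries from Nkx2.2fl/fl;Gcg-iCre;Rosa26:tdTomato mice, on a C57Bl/6J background. Both groups therefore carried the Cre driven by the glucagon gene and the reporter, and differed in the floxed Nkx2-2 alleles. In such mice recombination is limited to cells that have used the glucagon gene, and the age, sex and number of animals per library are not given in the labels. One KO column carries a number that no KO title has, and is called the unnumbered KO library.

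FOXA proteins are pioneer factors that open compacted chromatin at enhancers of gut, liver and pancreas, and Foxa1 and Foxa2 are needed for glucagon production in alpha cells. HNF4 proteins bind DNA as dimers and drive genes of lipid and glucose handling in hepatocytes, enterocytes and islets. Onecut factors act earlier, in the pancreatic progenitors and ducts, where Onecut1 (HNF6) controls Foxa2 and the endocrine determinant Neurog3.

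The RefSeq promoter windows of these genes, 300 bases long (GRCm38.p6, 250 bases before to 50 after a start site), were searched on both strands for short core motifs of the same factor families and of NKX2-2. Windows were found for 5 of the 8 genes (Hnf4a, Foxa1, Foxa2, Foxa3 and Onecut1), 8 windows in all. The upstream parts of the 3 best expressed genes with a window are shown because these are the genes whose relative levels are compared below. Capitals mark a match to the Onecut core ATTGATT or its reverse complement.
Hnf4a upstream start, chr2:163506607-163506807, plus strand: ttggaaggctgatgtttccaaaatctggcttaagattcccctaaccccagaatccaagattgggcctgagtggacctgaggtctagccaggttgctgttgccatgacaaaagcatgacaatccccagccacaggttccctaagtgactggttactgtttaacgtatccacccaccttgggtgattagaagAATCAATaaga
Foxa2, chr2:148046970-148047219, minus strand: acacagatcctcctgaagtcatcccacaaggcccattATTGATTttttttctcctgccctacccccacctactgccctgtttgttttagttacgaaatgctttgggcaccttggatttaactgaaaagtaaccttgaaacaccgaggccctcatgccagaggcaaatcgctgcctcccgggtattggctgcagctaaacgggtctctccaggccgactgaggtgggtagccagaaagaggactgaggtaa
Foxa3, chr7:19023540-19023789, minus strand: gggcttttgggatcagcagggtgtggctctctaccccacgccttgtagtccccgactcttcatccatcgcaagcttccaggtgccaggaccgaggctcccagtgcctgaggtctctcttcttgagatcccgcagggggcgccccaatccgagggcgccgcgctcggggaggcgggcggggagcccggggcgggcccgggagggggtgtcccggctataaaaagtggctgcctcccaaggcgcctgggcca
The Onecut core lay at -60 from the Hnf4a start site and at -213 from the most upstream of the 3 Foxa2 starts, and 2.86% of all 32851 mouse windows held it. The Onecut core ATCGATT was in none of the 8 windows and in 0.451% of all windows. A FOXA core (TGTTTAC, in 3.65% of all windows) was found at -141 from the Foxa1 start, and the FOXA core TGTTTGC (5.07%) in none of the 8. The HNF4 cores CAAAGTCCA (0.475%) and AAAGTCC (4.21%, contained in the longer one) and the NKX2-2 cores TTAAGTG (2.41%) and TCAAGTG (3.06%) were in none of the 8 either, which says only that these letters are not in these windows. Hnf4a has a second RefSeq start at chromosome 2, position 163547155, inside the gene. The upstream and the internal promoter are known as P2 and P1, islets being known to use mainly P2, but a count per gene does not separate their transcripts.

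Total counts ran from 45483504 to 72456557 per library, with control 4 and the unnumbered KO library the deepest. Control 4 had counts for 31024 genes, against 23150 to 24153 in the other controls. The unnumbered KO library had counts for 25873, against 24360 in KO 1 and 24532 in KO 2. Counts from 1 to 10 were even in 84.35% to 88.91% of cases in each library, so a read pair may count as 2 and counting limits are too narrow. Nkx2-2, the targeted gene, was lower in KO by DESeq2 (-0.45 on the log2 scale with an SE of 0.13 and an adjusted p of 0.0218, but 0.152 by edgeR), with 7534 to 7758 normalized counts in KO against 8596 to 12297 in controls. Normalized counts are raw counts divided by a size factor for each library, DESeq2 and edgeR are count models fitted to all genes, and a gene is called where its Benjamini-Hochberg adjusted p is under 0.05. The DESeq2 adjusted p for Nkx2-2 was over 0.05 in 5 of the 7 fits that each left out 1 library, between 0.0695 and 0.156 without control 2, control 3 or any of the 3 KO libraries. Of 9 alpha cell markers tested, 6 fell by DESeq2, among them Gcg, Irx1, Irx2, Slc7a2 and Slc38a5, and 2 of the 9 passed in edgeR (of those named, Slc38a5), with Gcg still at 3423113 ± 635108 (SD, n = 3) normalized counts in KO against 7042728 ± 855534 (SD, n = 4). In sorted bulk RNA, fewer cells of a type and less RNA per cell cannot be told apart. The labels do not give the floxed exons, so a count over the whole gene is only a partial check of the knockout. No gene in the 8 shares exon bases with an opposite-strand gene. Nkx2-2 shares 278 of its 2875 exon bases with such genes, and the strand setting of the counting is not given. Exon overlap on the same strand was found for Onecut1 alone, whose exons share 2171 of 4113 bases with Gm20649, a lincRNA listed at 0 in all 7 libraries. How reads in shared bases were assigned is not given. If they were counted for neither gene, the counts of Onecut1 are too low.

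Foxa2 was the most abundant of the 8 genes in alpha cells and Hnf4a came next. On normalized counts per kilobase of exon, the control level was 2100 ± 359 (SD, n = 4) for Foxa2, 450.0 ± 73.6 for Hnf4a, 281 ± 42.8 for Foxa3, 53.2 ± 12.4 for Hnf4g and 19.5 ± 2.17 for Onecut2. For scale, the level of Nkx2-2 on the same measure was 3641 ± 563 in controls. In KO libraries the levels per kilobase were 1758 ± 316 (SD, n = 3) for Foxa2, 569 ± 81.0 for Hnf4a, 360.0 ± 51.6 for Foxa3, 38.2 ± 12.8 for Hnf4g and 25.4 ± 7.38 for Onecut2. This order of the first 5 genes was the same in all 7 libraries. The ranges of neighbours in it did not overlap within a group, except for Hnf4g (25.9 to 51.4 per kilobase) and Onecut2 (20.6 to 33.9) in KO. The place of Onecut2 below Hnf4g rests on its exon length, 16234 bases against 2630. Before division by length, Onecut2 averaged 317 normalized counts in controls and Hnf4g 140.

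The remaining 3 genes were at or near the limit of detection in these counts, which for Onecut1 may be too low because of its exon overlap. Foxa1, the second forkhead pioneer, had a control level of 3.99 ± 2.37 per kilobase, and its raw counts, controls first and in order, were 22, 8, 6 and 15, then 6 for KO 1, 12 for KO 2 and 52 for the unnumbered KO library. Onecut1 was counted 8, 4, 2 and 0 times in the controls, 0 times in KO 1, 22 times in KO 2 and 6 times in the unnumbered KO library. The 2 genes overlapped in level in KO, where Onecut1 exceeded Foxa1 in KO 2. Onecut3 had 0 counts in all 7 libraries, which allows at most 3 counts per library, or 0.0414 to 0.066 CPM (counts scaled to the library total).

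None of the 8 genes passed the threshold between KO and control. DESeq2 gave an adjusted p for 6 of them, and 0 of these 6 were under 0.05, where 4.51% of all 17571 genes tested were called (2.24% higher and 2.27% lower in KO). In the quasi-likelihood test of edgeR the count was also 0, against 1.05% of all genes tested. At an unadjusted p under 0.05 there was 1 gene by each tool, Hnf4a, and 12.2% of all genes tested by DESeq2 passed that limit. KO and control libraries overlapped for all 8 genes, while they did not overlap for 12% of genes tested. The median log2 fold change over the 6 genes was 0.35, against 0.01 over all genes tested. The column names give control and KO libraries 3 shared numbers (1, 2 and 4, the last being the unnumbered KO library). Within these 3 pairs Hnf4a, Foxa3 and Onecut2 were higher in KO each time and Foxa2 was lower each time, so 4 of the 6 genes kept 1 direction, against 37.9% of all genes tested. The pairs were also fitted as a block, a fit added after seeing the data and without control 3. In it 0 of the same 6 genes passed, where 5.21% of genes tested did. The adjusted p with the block was 0.123 for Hnf4a, 0.186 for Foxa2, 0.351 for Foxa3 and 0.669 for Onecut2.

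**Figure D1:**
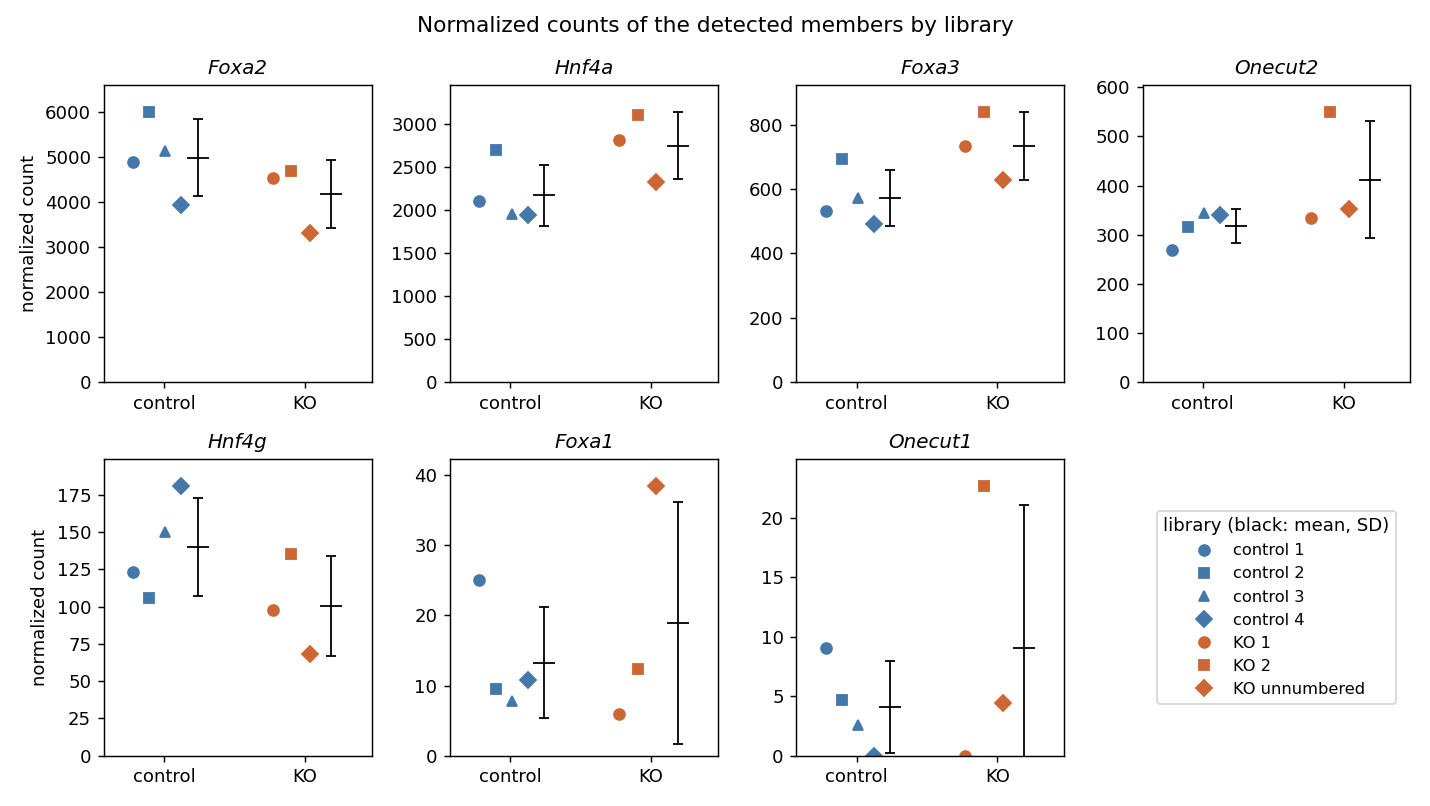
Normalized counts (vertical axes, each from 0) of the 7 members with any count, for 4 control and 3 KO libraries, with the mean and SD of each group in black (SD bars are cut at 0). KO and control points overlap in every panel; the 2 deepest libraries, drawn as diamonds, are the lowest of their group for Foxa2, Hnf4a and Foxa3.

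Hnf4a (ENSMUSG00000017950, chromosome 2, 163506808 to 163572910) had the smallest p of the 8 genes. The controls, in order of their numbers, had 2108, 2693, 1948 and 1940.0 normalized counts, whereas KO 1 had 2816, KO 2 had 3102 and the unnumbered KO library had 2329. KO 1 and KO 2 lay above all controls, and the unnumbered KO library lay above all controls except control 2. Group means were 2172 ± 355 (SD, n = 4) for control and 2749 ± 391 (SD, n = 3) for KO. The log2 fold change was 0.34 (SE 0.16), or 1.27-fold with a 95% interval of 1.02 to 1.58, with a DESeq2 p of 0.0364 and an adjusted p of 0.341 (0.451 in edgeR). The adjusted p was nearest to the threshold without control 2, at 0.0503 with a log2 fold change of 0.46, and farthest without KO 1, at 0.835. The antisense gene Hnf4aos, which lies in the Hnf4a locus without exon overlap, had 33 counts in control 4 and from 0 to 5 in the other libraries.

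Hnf4g (ENSMUSG00000017688, chromosome 3, 3508030 to 3658052), the paralog best known from the intestine, had 123, 106, 150.0 and 181 normalized counts in the numbered order of the controls. It had 97.8 in KO 1, 135 in KO 2 and 68.2 in the unnumbered KO library. KO 2 lay inside the control range and the other KO libraries below it. DESeq2 estimated a log2 fold change of -0.49 with an SE of 0.36 and an adjusted p of 0.764, or 0.714-fold with a 95% interval of 0.436 to 1.17. The estimate for Hnf4g was -0.12 without the 2 deepest libraries, which are control 4, its highest control, and the unnumbered KO library, its lowest KO library.

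Foxa2 (ENSMUSG00000037025, chromosome 2, 148042877 to 148046969) was at 4873, 5992, 5122 and 3923 normalized counts in the 4 controls by number. KO 1 was at 4521, KO 2 at 4672 and the unnumbered KO library at 3306. All KO libraries lay below controls 1 to 3, and control 4 lay between them. The estimated log2 fold change, -0.26 with an SE of 0.17, had an adjusted p of 0.686 by DESeq2 and 0.714 by edgeR and corresponds to 0.837-fold with a 95% interval of 0.662 to 1.06. Leaving out control 4 gave -0.36 with an adjusted p of 0.173, and leaving out the unnumbered KO library gave -0.12.

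Foxa3 (ENSMUSG00000040891, chromosome 7, 19013284 to 19023538), the forkhead paralog most prominent in adult liver, went the other way from Foxa2 in its estimate. Controls by number had 533, 694, 573 and 491 normalized counts of Foxa3, KO 1 had 735, KO 2 had 839 and the unnumbered KO library had 628. As for Hnf4a, control 2 was the highest control and KO 2 the highest library, and only control 2 reached into the KO range. Foxa3 had an estimate of 0.36 on the log2 scale, with an SE of 0.19 and adjusted p-values of 0.436 by DESeq2 and 0.49 by edgeR, or 1.28-fold with a 95% interval of 0.994 to 1.65.

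Onecut2 (ENSMUSG00000045991, chromosome 18, 64340020 to 64400987), the member of its family detected in all 7 libraries, had 268, 316, 345 and 340.0 normalized counts in the controls by number. KO 1 had 334, KO 2 had 550.0 and the unnumbered KO library had 353, so KO 2 alone stood well above the controls. Its log2 estimate of 0.38 (SE 0.24) had an adjusted p of 0.643 by DESeq2 and corresponds to 1.3-fold with a 95% interval of 0.935 to 1.8. Without KO 2 it was 0.11. For Foxa1 the estimate was 0.52 (SE 0.93, adjusted p 0.987), with an interval of 0.405-fold to 5.09-fold, and it turned to -0.54 without the unnumbered KO library. Onecut1 received no adjusted p, and its estimate of 1.15 (SE 1.79) turned to -0.87 without KO 2.

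**Figure D2:**
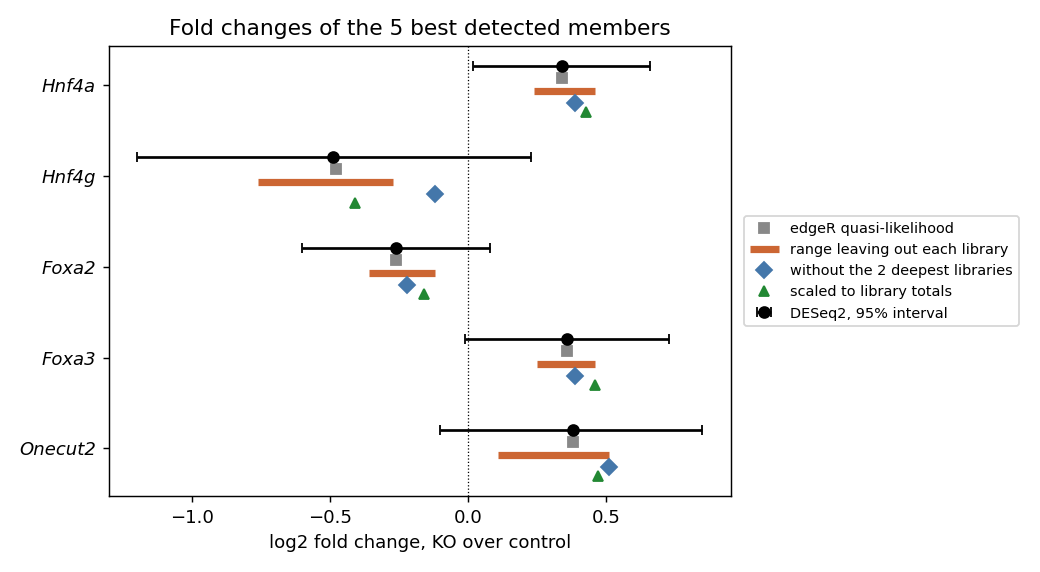
Log2 fold changes (KO over control, horizontal axis) of the 5 best detected members, with the 95% interval of the DESeq2 fit, the edgeR estimate, the range over fits that leave out 1 library each, the fit without the 2 deepest libraries and the fit scaled to library totals. Hnf4a, Foxa3 and Onecut2 lie to the right of 0 and Foxa2 and Hnf4g to the left in each fit drawn; the 95% interval leaves out 0 for Hnf4a only (0.02 to 0.66, before any adjustment for the number of genes).

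For Foxa2, Hnf4a and Foxa3 the deepest library was the lowest of its group in both groups, which did not hold for Hnf4g or Onecut2. In the 5 shallower libraries, Hnf4a and Foxa3 were higher in both KO libraries than in all 3 controls and Foxa2 was lower. Between the 2 deepest libraries, the unnumbered KO library differed from control 4 in the same directions for all 3 genes. Groups did not overlap in the 5 shallower libraries for 3 of the 6 tested members and for 30.1% of all genes tested, and 21.7% of genes also had the same direction in the 2 deepest. In the fit without the 2 deepest libraries the adjusted p was 0.136 for Hnf4a, 0.273 for Foxa3 and 0.412 for Foxa2. Scaling to library totals moved the median log2 fold change of all genes to 0.11 and the share of calls that were higher from 49.7% to 69.7%. Under it the log2 fold changes were 0.43 for Hnf4a (adjusted p 0.054), 0.46 for Foxa3 (0.078) and -0.16 for Foxa2 (0.737).

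Relative levels of the genes within a library do not depend on how libraries are scaled. Of the summed Foxa level per kilobase, Foxa3 made up 11.3%, 11.9%, 11.5% and 12.7% in the controls by number, 15.9% in KO 1, 17.2% in KO 2 and 18% in the unnumbered KO library. Controls averaged 11.8% ± 0.631 (SD, n = 4) and KO libraries 17.0% ± 1.06 (SD, n = 3), without overlap. Foxa2 made up nearly all of the rest, with 87.1% to 88.4% in controls and 81.3% to 84.0% in KO. The Foxa3 share was thus higher in KO in the 2 deepest libraries (12.7% against 18%) and in the 5 shallower ones. No test was run on these shares. They combine genes whose own differences did not pass the threshold, with Foxa3 estimated higher and Foxa2 lower in KO. Groups did not overlap for 12% of single genes tested. How often a family share or a ratio of genes separates the groups was not computed.

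Hnf4a also lay higher relative to Foxa2 in KO, a ratio chosen after its values were seen. The ratio of their levels per kilobase was 0.212, 0.221, 0.187 and 0.243 in the controls by number, 0.306 in KO 1, 0.326 in KO 2 and 0.346 in the unnumbered KO library, without overlap. Within the HNF4 pair, Hnf4g made up 6.75% to 14.6% of the summed level in controls and 5.1% to 7.41% in KO, with overlap. Onecut2 was 88.2% to 100% of the Onecut level in controls and 86% to 100% in KO, on few counts of Onecut1. These shares are too high if reads in the overlapped exons of Onecut1 were not counted.

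**Figure D3:**
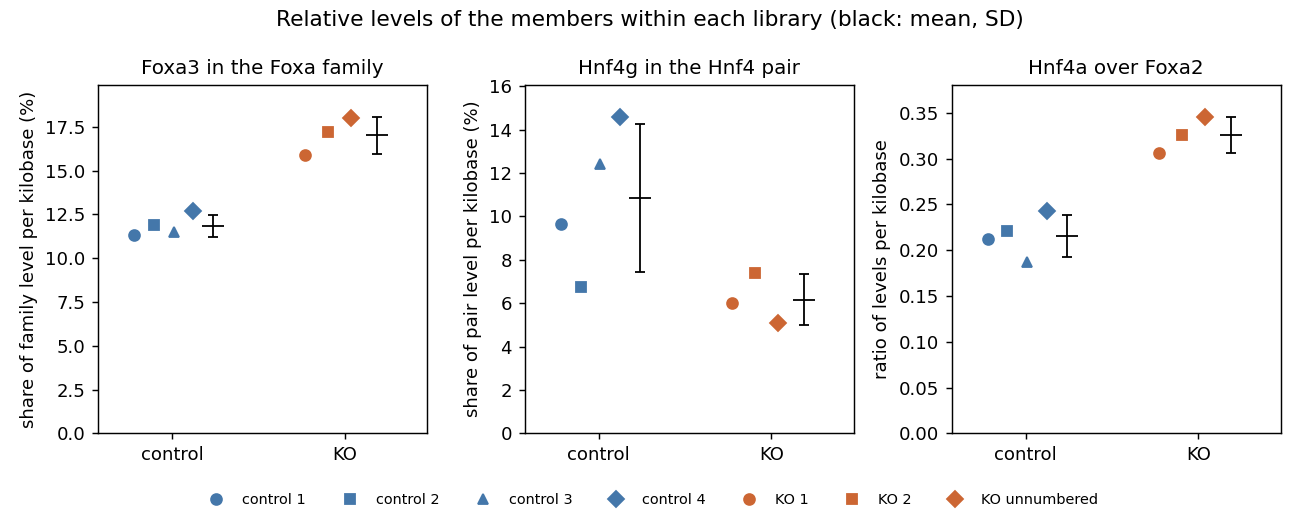
Share of Foxa3 in the summed Foxa level per kilobase, share of Hnf4g in the Hnf4 level (both in %), and the ratio of Hnf4a to Foxa2, for each library, with group mean and SD in black; all axes start at 0. KO libraries lie above all controls for Foxa3 (15.9% to 18% against 11.3% to 12.7%) and for the ratio, and overlap with them for Hnf4g.

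Genes that work with these factors were read from the same fit, using lists of 26 partner factors and coactivators, 28 genes known as HNF4 targets and 19 known as FOXA targets. With the 3 pairs as a block and without control 3, 14 genes of these lists were called in place of 8. Leaving out control 3 without a block gave 10. The block called 3 partners higher and 1 lower, and 3 HNF4 targets higher and 1 lower. It called 4 FOXA targets higher and 3 lower, with Slc2a2 in both target lists. Over all genes tested, 4.51% were called with all libraries and no block, and 5.21% with the block. Of the partners, 23 received an adjusted p, 3 were higher in KO and 0 lower, with a median log2 fold change of 0.30. Cebpa, a liver-enriched leucine zipper factor that shares many enhancers with HNF4 and FOXA in hepatocytes, rose, with means of 77.6 ± 26.7 (SD, n = 4) for control and 260.0 ± 99.2 (SD, n = 3) for KO. Normalized counts of Cebpa were 86.2, 111, 62.8 and 50.6 for the controls and 213, 374 and 193 for KO, without overlap (log2 fold change 1.75, SE 0.39, adjusted p 0.000385 by DESeq2 and 0.0703 by edgeR; 0.0558 in DESeq2 without KO 2). Nr5a2, a nuclear receptor of acinar cells, liver and gut, rose from 88.0 ± 18.8 to 179 ± 18.3 (log2 fold change 1.03, adjusted p 0.0227 in DESeq2 and 0.17 in edgeR). Among the fits that left out 1 library, Nr5a2 passed only without control 3, and was at 0.0515 without control 4 and between 0.0751 and 0.262 without any other library. With the block of 3 pairs Nr5a2 did not pass either (adjusted p 0.0813). Grip1 rose by 0.63 (adjusted p 0.0376 in DESeq2, 0.163 in edgeR). It encodes a glutamate receptor scaffold protein that shares a name with the coactivator Ncoa2. The counts of partners higher in KO, with and without the block, thus include Grip1 by name only. Among the fits that left out 1 library, it passed only without control 4 or without KO 2 (0.11 to 0.375 without any other library).

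For the 3 most abundant partners the group means differed by less than 1 SD. Prox1, a homeodomain partner of HNF4A in liver, averaged 17615 ± 2067 normalized counts for control and 17507 ± 2643 for KO (log2 fold change -0.01, SE 0.14). The acetyltransferase gene Ep300 had 12933 ± 1282 and 12870.0 ± 378 (-0.01, SE 0.11), and Ncoa2 had 9283 ± 199 and 9377 ± 294 (0.01, SE 0.08). Their adjusted p-values in DESeq2 were 0.998 or above.

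Of the HNF4 targets 13 received an adjusted p, with 0 higher, 1 lower and a median of 0.18. The exception was Ttr, the transthyretin gene, a classical target of HNF4 and FOXA in liver, which fell from 224297 ± 43990 to 60222 ± 14557 normalized counts (log2 fold change -1.90, SE 0.19, adjusted p 5.7e-21 by DESeq2 and 0.0114 by edgeR). The lowest control value of Ttr was 190935 and the highest 288427, and KO values were 61365, 74174 and 45127, far outside that range. Slc2a2, the glucose transporter gene, did not pass (0.64 on the log2 scale, adjusted p 0.0649), although its 3 KO libraries (4888 to 7964) lay above all controls (2738 to 4842). With the block of 3 pairs Slc2a2 passed (0.61, adjusted p 0.00548). The hepatic and intestinal targets Apoc2 and Fabp1 had 0 counts in all libraries, and Apoa1 had from 6.2 to 31.1 normalized counts. Serpina1a had 36.1 to 1418 in controls and 1674 to 4866 in KO (3.08, adjusted p 0.266 by DESeq2, and 0.000794 with the block). KO and control did not overlap for 6 of the 13 targets, against 12% of genes tested. Serpina1a, Slc2a2 and Apoh were higher in KO, and Ttr, Apoa2 and Cyp2d22 lower. Apart from Ttr and Slc2a2, these genes were named after their values were seen.

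Of the FOXA targets 15 received an adjusted p, with 1 higher, 3 lower and a median of -0.06. Gcg, the glucagon gene, fell by 1.04 on the log2 scale (SE 0.15), with an adjusted p of 6.76e-10 by DESeq2 and 0.175 by edgeR. Cacna1d, a calcium channel gene, fell by 0.85 on the log2 scale (adjusted p 0.000737 and 0.1 in edgeR). Alb, the albumin gene and a marker of hepatocytes, rose from 46.5 ± 26.2 to 184 ± 89.2 normalized counts (log2 fold change 1.99, adjusted p 0.00573 in DESeq2 and 0.136 in edgeR), and did not pass without KO 1 (0.236) or without KO 2 (0.0924). Pcsk2, the proglucagon-processing convertase gene, and Abcc8, the sulfonylurea receptor gene, had log2 fold changes of -0.06 (SE 0.21) and -0.08 (SE 0.14).

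**Figure D4:**
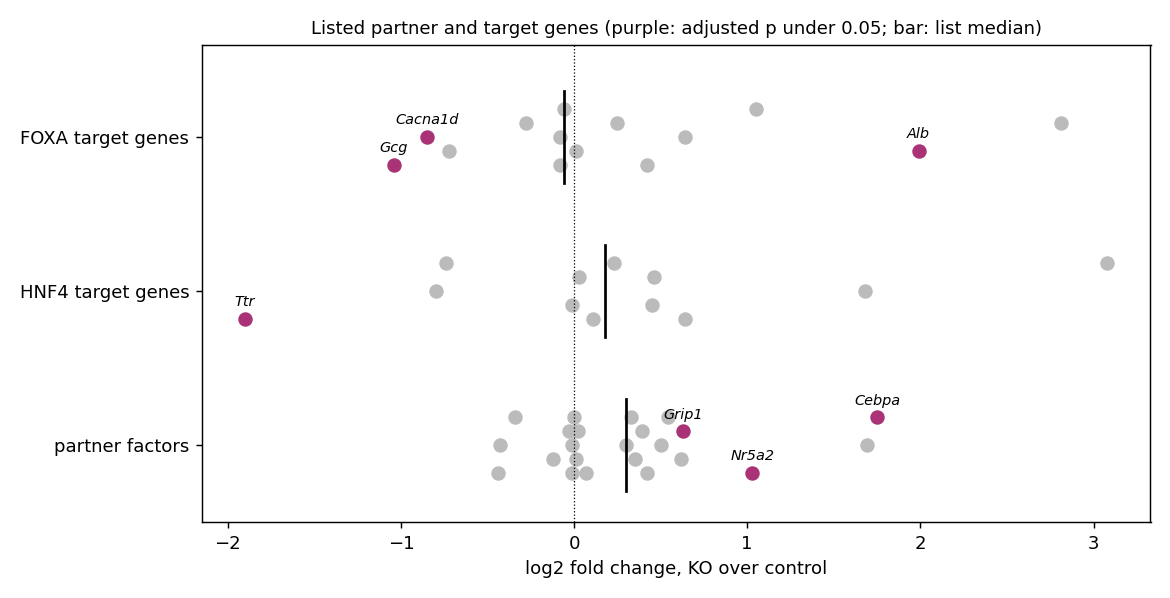
Log2 fold change (KO over control, horizontal axis) of the listed partner, HNF4 target and FOXA target genes with an adjusted p, 2 of which are not drawn; vertical position within a row only separates points. Genes past the threshold are purple and named, and the bars mark list medians of 0.30, 0.18 and -0.06.

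By the Pearson correlation of log2(normalized count + 1) over the 7 libraries, the genes most like Hnf4a among 12765 others with a mean of at least 100 normalized counts were Irak2 (r = 0.98), Olfml3 (r = 0.979) and Tmem30b (r = 0.979). With this many genes and 7 libraries, such values are a description only, and all points share the size factors. None of the 3 passed the threshold, with log2 fold changes of 0.79, 1.40 and 0.32 (adjusted p 0.13, 0.095 and 0.66 in DESeq2).

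Markers of other cells were read from the same libraries, and their part in the levels of Hnf4a, Foxa3 or Onecut2 was not tested. The sum of 4 gamma and epsilon cell markers was 308421 to 580395 normalized counts in controls and 893059 to 1139879 in KO. Ppy, Pyy and Mboat4 of that list were called by DESeq2 and Ppy alone by edgeR (adjusted p 0.0474). For the duct, beta, delta, acinar, hepatocyte and leukocyte markers the calls below are from DESeq2, and edgeR called 0 genes of these lists.

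The summed count of 10 duct markers was 13033 to 17877 in controls and 17955 to 18889 in KO, with 2 of 10 higher in KO (Spp1 and Tspan8), while Krt19 had 5.87 to 59.9 in all libraries. With the block of 3 pairs Spp1 did not pass (adjusted p 0.0696). The duct factor gene Sox9 had 94.1 to 586 in controls and 682 to 1039 in KO (adjusted p 0.169, and 6.23e-06 with the block). The sum of 7 hepatocyte markers was 147 to 721 in controls and 920.0 to 1716 in KO. Nearly all of it was Fgb, with 98.3 to 605 in controls and 737 to 1504 in KO (adjusted p 0.106, and 2.52e-09 with the block), and Alb. Fga, Afp, Cyp3a11 and Ahsg were at 0 in all 3 KO libraries and at most at 9.44 in controls. Fgb and these genes were named after their values were seen.

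Sums overlapped for beta cell markers (338408 to 695054 and 536260.0 to 981536, with Iapp and Npy higher of 10), delta cell markers (197155 to 400129 and 356961 to 633738, with Rbp4 and Ffar4 higher of 5) and acinar markers (1631 to 14404 and 3945 to 9906, with Bhlha15 higher of 9 tested). The block of 3 pairs, which leaves out control 3 with the highest acinar sum, called 5 beta cell markers and 6 acinar markers higher and turned Cpa1 from -0.60 to 2.27 (adjusted p 7.04e-06). Endothelial sums were 218 to 363 and 154 to 991 and mesenchymal sums 1357 to 3828 and 2174 to 3999, with 0 called in either. With the block 3 mesenchymal markers were higher, among them Col1a1 (1.22, adjusted p 0.0125). Leukocyte sums were 904 to 1456 and 602 to 843, a difference carried by C1qa, which fell from 976 ± 225 (SD, n = 4) to 553 ± 124 (SD, n = 3). Ptprc, which marks leukocytes in general, had at most 20.9 normalized counts in controls and 31.1 in KO, and C1qb at most 20.9 and 48.9.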

How the data were processed

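RNA was measured in 7 libraries of sorted mouse alpha cells, 4 control and 3 KO. The authors deposited raw counts per gene as 1 table of whole numbers for 55536 genes. The submitters' processing notes name FastQC, STAR, featureCounts, DESeq2 and mm10, with no version or settings. Per the labels' protocols, RNA was isolated with Qiagen RNeasy Micro columns and made into libraries by the stranded SMARTer total RNA method for low input (Takara, Pico). The labels describe the RNA both as ribosome-depleted and as polyA. The strand setting is not given in the sources used here. Nothing in the labels says whether libraries came from separate animals, so p-values measure the spread between these libraries, which may be technical.

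All 7 columns were used. Counts of genes with at least 1 count (35178) entered a DESeq2 fit (version 1.42.0, R 4.3.3), the tool the series' design text names, with default size factors, the Wald test and no covariate. P-values were adjusted by Benjamini-Hochberg over all genes tested with a threshold of 0.05. Log2 fold changes are KO over control, intervals are the estimate ± 1.96 SE, and normalized counts are counts divided by size factors. The quasi-likelihood test of edgeR 4.0.16 was the first alternative. Both fits were run on simulated data, whose spread was set and not estimated from these libraries. There the share of false calls was above the 0.05 threshold for DESeq2 and below it for edgeR. No pair of libraries within a group agreed within sampling noise (chi-square per degree of freedom at least 42.86). Control 4 differed most from its group, at 298.7 to 355 with the other controls, which were at 42.86 to 53.42 among themselves. The unnumbered KO library was at 136.5 with KO 1 and 196.3 with KO 2, against 48.22 between KO 1 and KO 2. The cause was not tested.

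Positions and union exon lengths come from GENCODE M21 (GRCm38), which held all 55536 identifiers, and promoters from RefSeq. The genes, lists and tests were chosen with earlier results of these data known. Named genes are the 8 genes, Nkx2-2, listed partner and target genes past the threshold or among the 3 most abundant of their list, called or defining cell markers, and the 3 genes most like the member with the lowest p. Deviations from the group means correlated at 0.231, 0.301 and 0.482 for the libraries numbered 1, 2 and 4 in the columns. All were over 0.1, and these numbers were taken as pairs, but the limit does not single them out. Control 3, which has no partner, correlated at 0.114 with KO 1 and at 0.407 with KO 2, above control 2. The pair numbered 4 holds the 2 deepest libraries, so depth and a shared number cannot be told apart there. Nothing in the labels says what a number marks. The hepatocyte marker Tf was not analysed here. Single values of 2 listed target genes are not reported here, though the list counts, medians and sums include them. The floor of 3 counts covers counting error alone. At this depth the number of libraries limits the precision of abundant genes.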

Additional observations from a re-analysis of the deposited data

Results flagged for a closer look

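Among 24 results with 4 control values, control 4 stood apart from the other controls for Cacna1d by Dixon's test at the 95% level, with 13918 normalized counts against 8661 to 9352. Chance flags about 1 in 20 groups. The call of Cacna1d held when any 1 of the 7 libraries was left out.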

How the results depend on the processing

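The number of the 8 genes past the threshold was 0 under all 18 alternatives. Hnf4a, Foxa3 and Onecut2 kept a positive and Foxa2 a negative log2 fold change in all 18. Hnf4g turned to 0.01 with the replicate block of libraries 1 and 2 and 0.03 without it on the same 4 libraries. Foxa1 turned to -0.54 without the unnumbered KO library, -0.63 without the 2 deepest, -0.85 with the replicate block and -0.92 without it. Onecut1 turned to -0.87 without KO 2 and -1.16 with the replicate block. Leaving out 1 library gave -0.54 to 1.02 for Foxa1 and -0.87 to 1.91 for Onecut1. The cause was not tested.

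Calls over all genes numbered 792, against 203 in edgeR, 249 in edgeR without control 4 and 430 to 910 when 1 library was left out (430 without KO 1). Listed partner and target genes past the threshold numbered 8, against 2 in edgeR with all libraries or without control 4, 13 with library totals, 14 with the replicate block of 3 pairs and 5 to 12 when 1 library was left out (5 without KO 1, 12 without control 2). The edgeR fit without control 4, the fit of 4 libraries without a block and the block of 3 pairs were chosen after seeing the data. With the longest transcript as length, the Foxa3 share was 10.8% in controls and 15.6% in KO.

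Libraries 1 and 2 share a number in the titles and the columns, and a block on these 4 libraries gave 580 calls, against 622 without it. The column names also share the number 4, and a block of these 3 pairs, without control 3, gave 1008 calls, against 540 without control 3 and no block. Its calls that differ for named genes are given beside them.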
